A study of Homo sapiens with 9 samples.

Results

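Glycolysis and hypoxia response genes were followed in NT2 cells exposed to the organophosphorus compounds (OPs) paraoxon and mipafox. The genes were chosen by name: 35 genes of glucose uptake, glycolysis, lactate formation, control of glycolytic flux, oxygen sensing and the response to low oxygen. A probe belonged to the set when the gene name in the scanner files was one of the 35. All 35 genes were found, among 34623 gene names on the array. They had 46 of the 42405 probes, and 11 of the genes had more than 1 probe.

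Glycolysis splits glucose into pyruvate in the cytosol and yields ATP without oxygen. Lactate dehydrogenase turns pyruvate into lactate and so restores the cofactor that the pathway consumes. When oxygen is short, prolyl hydroxylases such as EGLN1 no longer mark the HIF1A protein for destruction, and HIF1A then raises transcription of glucose transporters, most glycolytic enzymes, VEGFA and CA9. HIF1A is regulated mainly through the stability of its protein, so its mRNA is not a measure of HIF1A activity. Pluripotent stem cells are known for a high rate of glycolysis, which declines as they differentiate into neurons.

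NT2 cells are a human embryonal carcinoma line, and retinoic acid starts their neuronal differentiation. All cultures, controls included, received 10 μM retinoic acid in differentiation medium for 4 days (96 h), together with 1 μM paraoxon, 5 μM mipafox, or no OP. Paraoxon is the active derivative of the insecticide parathion and does not inhibit neuropathy target esterase, while mipafox is a neuropathic OP that does. Each treatment had 3 one-colour arrays, lettered A, B and C, of a single cell line. The labels call them biological replicates and the study's methods call them technical replicates, so p-values may measure technical spread only. In such bulk RNA, a change in the share of a cell type and a change of RNA per cell cannot be told apart.

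Of the 2 slides, the first carried mipafox A beside the 3 control arrays, and the second carried mipafox B and C beside the 3 paraoxon arrays. Paraoxon against control and slide 2 against slide 1 therefore cannot be told apart, except through the mipafox arrays: values from a fit with slide as a term rest on mipafox A. Between 69.6% and 76.6% of spots were well above background on an array, none was saturated, and the correlation between arrays over the tested probes lay between 0.974 and 0.996 (36 pairs). The markers fitted the label of the cells: 10 of 10 embryonal carcinoma genes and 9 of 9 retinoic acid response genes were well above background on all 9 arrays, as were 4 of 5 neural progenitor and 4 of 6 neuron genes. GFAP, which defines astrocytes, was well above background on no array, although S100B and ALDH1L1 were (2 of 4 astrocyte genes). The same held for 2 of 4 fibroblast, 3 of 4 endothelial and 3 of 4 blood genes, while haemoglobin HBB was well above background on none. Cell type makeup as a source of differences was not tested.

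The probes were 60 bases long, and the results below turn on genes whose probes behaved differently. The second probes of VEGFA, P4HA2, PGAM1 and HIF1A are shown as examples, because each reads another stretch of the transcript than its partner and gave another value. CA9 is shown as the best known hypoxia target of the set, and the second LDHA probe because of its position. They are given 5′ to 3′ in the sense of the mRNA, with hg19 positions from the scanner files.
VEGFA, chr6:43746223-43746634, plus strand: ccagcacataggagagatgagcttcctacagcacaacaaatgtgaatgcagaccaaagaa
P4HA2, chr5:131549610-131549669, minus strand: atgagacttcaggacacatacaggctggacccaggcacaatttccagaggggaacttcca
PGAM1, chr10:99190177-99190236, plus strand: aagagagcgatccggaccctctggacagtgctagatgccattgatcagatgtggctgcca
HIF1A, chr14:62211472-62211531, plus strand: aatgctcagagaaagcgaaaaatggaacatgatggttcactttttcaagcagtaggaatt
LDHA, second probe, chr9:14921817-14921876, minus strand: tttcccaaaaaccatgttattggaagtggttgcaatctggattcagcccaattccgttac
CA9, chr9:35677817-35679204, plus strand: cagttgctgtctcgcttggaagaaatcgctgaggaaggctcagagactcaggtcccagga
The VEGFA and CA9 probes span 412 and 1388 bases of the genome with 60 bases of sequence, so they cross a splice junction. The second LDHA probe was placed on chromosome 9, whereas the brighter LDHA probe was placed on chromosome 11. Several glycolytic genes have near-identical copies elsewhere in the genome, and a probe to such a gene may not read that gene alone. The PGAM1 probe above is listed in the files for a PGAM4 transcript as well.

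Exposure to 1 μM paraoxon was followed by small differences in these genes, and none passed the test. Values are log2 of the processed signal minus the 75th percentile of the array, so a value of 0 is the signal at that percentile, and each gene is represented by its brightest probe. All 35 genes were well above background on all 9 arrays. A gene counted as called when its limma adjusted p was under 0.05 and its log2 fold change exceeded 1 in size. The study, with the same limits but its own normalization and filtering, reported genes altered by paraoxon and almost none by mipafox. In the fit used here, 0 of 35 genes were called with paraoxon, against 0% of the 29134 tested probes. At an unadjusted limma p under 0.05, NDRG1 and VEGFA were higher and ENO1 and CA9 lower, 4 of 35 genes or 11.4%. VEGFA was counted as higher through the probe with the higher mean signal over the 9 arrays, a mean to which the exposed arrays themselves contributed; its other probe was lower at that threshold. Over all tested probes 7.31% were higher and 6.02% lower at that threshold, 13.3% together, so the share of these genes was close to the background. The median log2 fold change was -0.05 over the 35 genes and 0.01 over all tested probes.

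With 5 μM mipafox no gene was called either (0 of 35, against 0% of all tested probes), and only HK1, the hexokinase of most tissues, was past an unadjusted p of 0.05 (1 of 35, or 2.86%). Of all tested probes, 2.96% were higher and 4.00% lower at that threshold. The median log2 fold change was 0.06 over the genes and 0.00 over all tested probes.

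**Figure D1:**
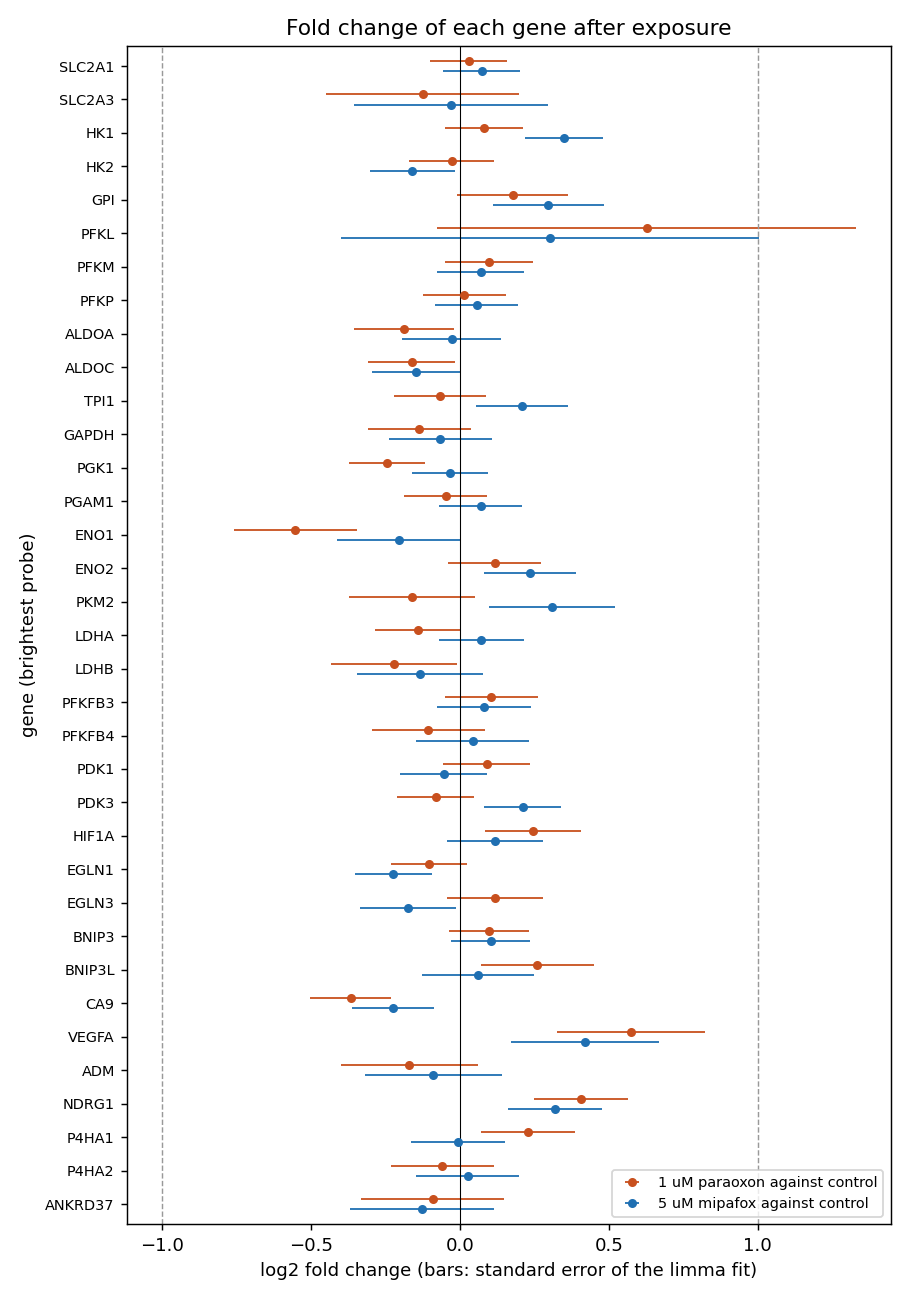
Log2 fold change (x axis) of the brightest probe of each of the 35 genes (y axis), for 1 μM paraoxon (orange) and 5 μM mipafox (blue) against control, 3 arrays per treatment. Bars are the standard error of the limma fit and dashed lines mark a fold change of 1 on the log2 scale, which no gene reached; paraoxon ran from -0.55 (ENO1) to 0.63 (PFKL) and mipafox from -0.23 to 0.42 (VEGFA).

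The arrays of the exposed and control cultures did not overlap for 7 genes with paraoxon. PFKM, VEGFA and NDRG1 were higher and PGK1, ENO1, LDHA and CA9 lower on all 3 paraoxon arrays. Over all tested probes, 12.4% were higher and 11.1% lower in that way, so 3 and 4 of 35 genes are near the background. With mipafox, HK1, GPI, PDK3 and NDRG1 were higher on all 3 arrays and HK2 and EGLN1 lower. These were 4 and 2 of 35 genes, against 5.32% and 6.46% of all tested probes. NDRG1 was in both counts, with mipafox C only just above control A. LDHA and PFKM were only just apart from the controls with paraoxon. LDHA read 3.114 on paraoxon C and 3.116 on control A, and PFKM 3.678 on paraoxon B and 3.672 on control A. When arrays were weighted by their own spread in the fit, 3 genes with paraoxon (CA9, VEGFA and NDRG1) and 8 with mipafox reached an adjusted limma p under 0.05, 8.57% and 22.9% of the 35. That fit took 13.8% and 19.8% of all tested probes past the same threshold, and its weights ran from 0.285 (mipafox C) to 4.37 (control B).

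**Figure D2:**
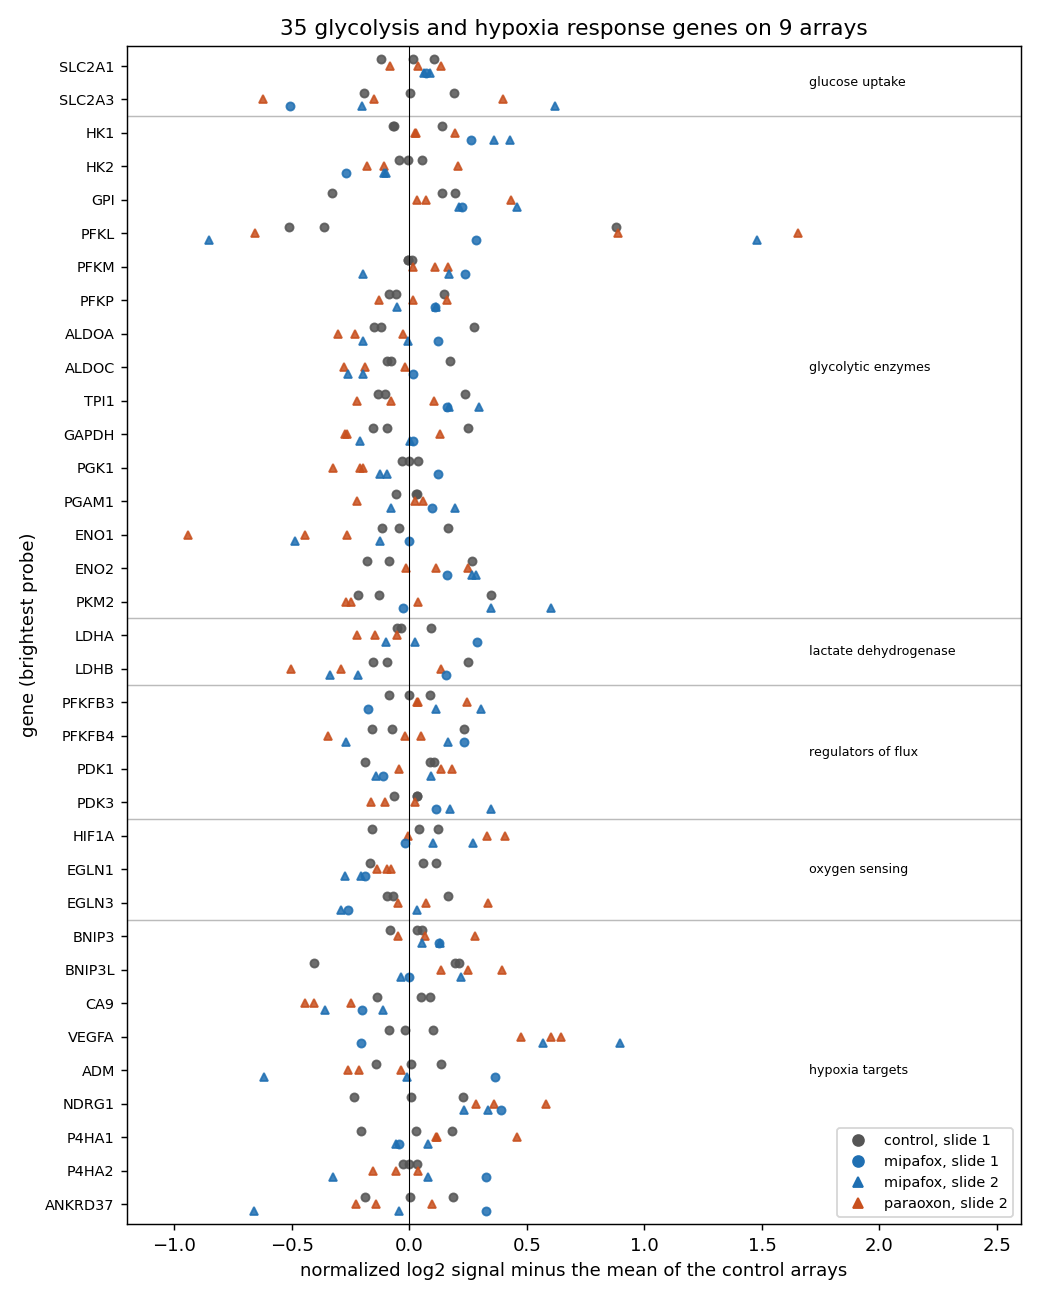
Normalized log2 signal minus the mean of the control arrays (x axis) for the brightest probe of each gene (y axis), 1 point per array, coloured by treatment and shaped by slide. Most genes keep within 0.5 of the control mean on every array; PFKL spreads over 2.51 log2 units within and across treatments.

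Neither glucose transporter was past an unadjusted p of 0.05 with either OP. SLC2A1, the transporter that most cells use for basal glucose uptake, lay between 3.60 and 3.86 on the 9 arrays. Its log2 fold change was 0.03 with paraoxon and 0.07 with mipafox. SLC2A3, the high-affinity transporter of neurons, varied more within each treatment, from -0.69 to 0.55, with fold changes of -0.12 and -0.03. The arrays of the 3 treatments overlapped for these probes. With slide in the fit the SLC2A3 values were -0.84 and -0.51. The second SLC2A3 probe gave -0.41 (SE 0.20, limma adjusted p = 0.435) and -0.24 (SE 0.20, limma adjusted p = 0.898), and its 3 mipafox arrays were all below the controls.

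The 15 glycolytic enzymes had 1 gene past an unadjusted p of 0.05 with each OP, or 6.67%. Of all tested probes, 13.3% were past it with paraoxon and 6.96% with mipafox. The median log2 fold change of the 15 enzymes was -0.05 with paraoxon and 0.07 with mipafox. HK1, which traps glucose in the cell as glucose 6-phosphate, read 0.90, 0.69 and 0.69 on the control arrays and 1.02, 1.12 and 1.19 with mipafox. All 3 mipafox arrays were above all controls. The log2 fold change was 0.35 (SE 0.13, limma adjusted p = 0.632). With paraoxon HK1 read 0.95, 0.79 and 0.78, overlapping the controls (log2 fold change 0.08, SE 0.13, limma adjusted p = 0.860). HK2, the inducible hexokinase, read 1.30 to 1.40 in controls and 1.08 to 1.25 with mipafox, a fold change of -0.16 on the log2 scale. Its second probe was well above background on no array and was not tested.

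GPI, which turns glucose 6-phosphate into fructose 6-phosphate, read 3.89, 4.36 and 4.42 in controls. It read 4.25, 4.29 and 4.66 with paraoxon and 4.45, 4.68 and 4.44 with mipafox. The mipafox arrays were above all controls, and control A was the lowest array of all. The log2 fold changes were 0.18 (SE 0.19, limma adjusted p = 0.763) and 0.30 (SE 0.19, limma adjusted p = 0.830).

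PFKL, the liver form of phosphofructokinase that commits sugar to glycolysis, had the widest spread. It read 2.45, 1.21 and 1.06 on control arrays, 2.46, 0.92 and 3.23 with paraoxon and 1.86, 3.05 and 0.72 with mipafox. Every treatment held both high and low arrays, and its standard deviation within treatments was 1.05 log2 units (percentile 98.8 of the tested probes). The median over all tested probes was 0.25. PFKM and PFKP, the muscle and platelet forms, stayed within 3.46 to 3.90 and 2.07 to 2.36. PFKM was above all controls on the 3 paraoxon arrays, only just so on paraoxon B, with a log2 fold change of 0.10.

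PGK1, the first ATP-forming enzyme of the pathway, read 5.35, 5.38 and 5.32 in controls and 5.14, 5.02 and 5.15 with paraoxon. The treatments did not overlap, and the log2 fold change was -0.25 (SE 0.13, limma adjusted p = 0.458). With mipafox PGK1 read 5.47, 5.25 and 5.22 (log2 fold change -0.03, SE 0.13, limma adjusted p = 0.987). Mipafox A, on the slide of the controls, was above the controls, and mipafox B and C, on the slide of paraoxon, were below them. The paraoxon value was -0.01 once slide was a term in the fit.

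ENO1, the enolase of most tissues, had the lowest paraoxon value of the 35 genes. It read 4.98, 4.70 and 4.77 on the control arrays, 4.38, 4.55 and 3.88 with paraoxon, and 4.82, 4.33 and 4.69 with mipafox. The paraoxon arrays were all below the controls and paraoxon C was the lowest. The log2 fold change was -0.55 (SE 0.21, limma adjusted p = 0.288) with paraoxon and -0.21 (SE 0.21, limma adjusted p = 0.926) with mipafox. The paraoxon value was -0.25 with slide in the fit. ENO2, the neuronal enolase, read 2.42, 1.97 and 2.07 in controls, 2.27, 2.14 and 2.40 with paraoxon and 2.31, 2.42 and 2.44 with mipafox. Its arrays overlapped in both comparisons (0.12, SE 0.16, limma adjusted p = 0.825; 0.24, SE 0.16, limma adjusted p = 0.846).

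The remaining enzymes were ALDOA and ALDOC (aldolases), TPI1, GAPDH, PGAM1 and PKM2 (pyruvate kinase M). Their arrays overlapped between each OP and control. Paraoxon values ran from -0.19 (ALDOA) to -0.05 (PGAM1), all 6 below 0, and mipafox values from -0.15 (ALDOC) to 0.31 (PKM2). GAPDH, often used as a loading reference, read 7.61, 7.27 and 7.21 in controls, 7.10, 7.09 and 7.50 with paraoxon and 7.38, 7.37 and 7.15 with mipafox.

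**Figure D3:**
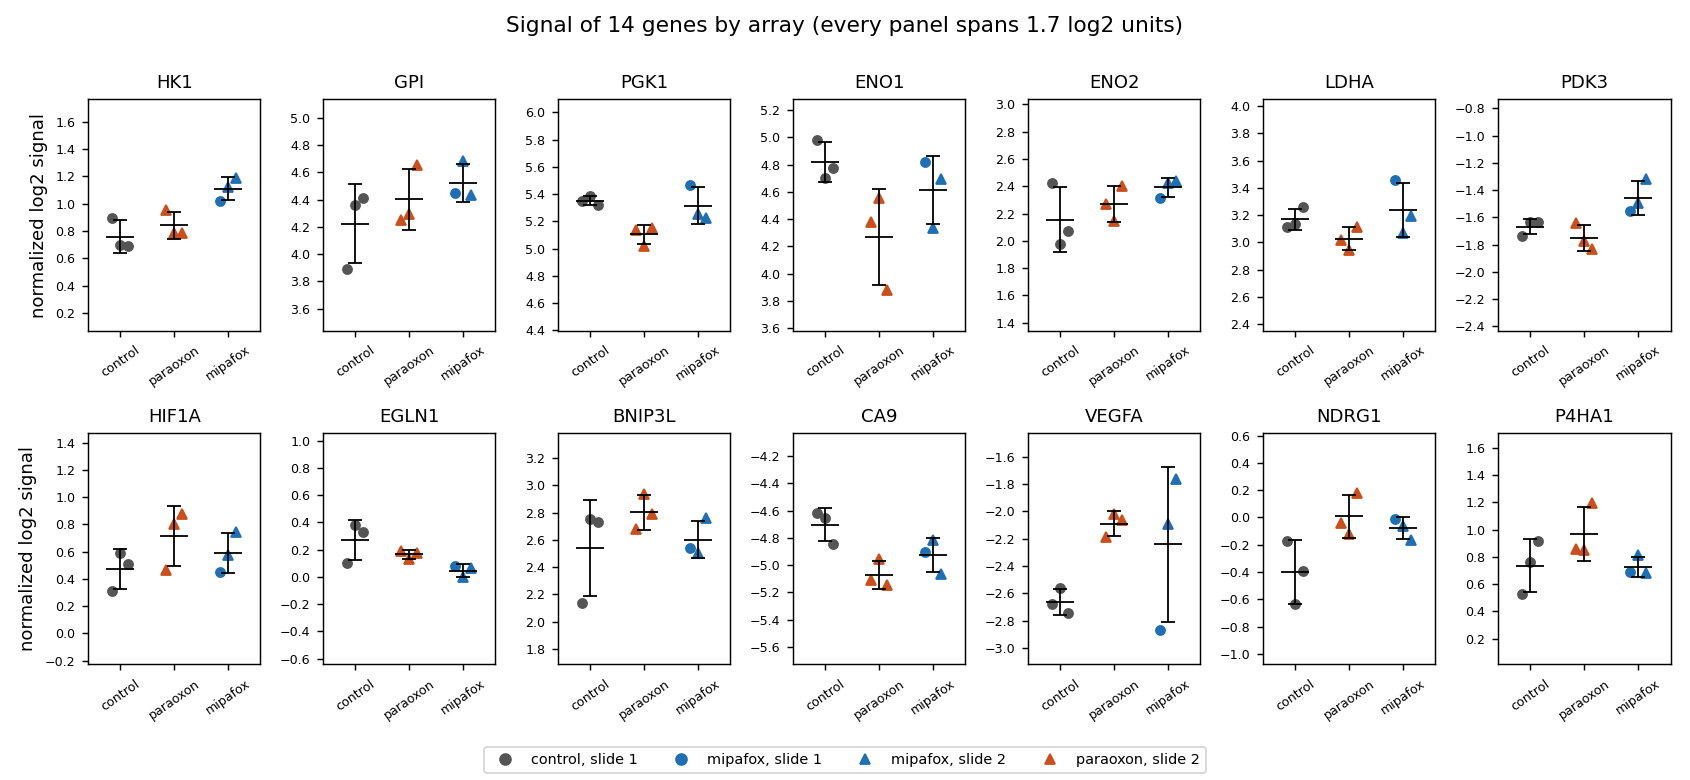
Normalized log2 signal (y axis) by treatment (x axis) for the 14 genes given with full statistics, 1 point per array (circles slide 1, triangles slide 2), with the mean and standard deviation of 3 arrays in black. The NDRG1 values of mipafox C and control A both round to -0.17, and the brighter VEGFA probe is low on mipafox A (-2.87) and high on mipafox B and C.

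Lactate dehydrogenase showed no difference past the test. LDHA, the subunit that favours lactate formation, read 3.12, 3.13 and 3.26 in controls, 3.02, 2.95 and 3.11 with paraoxon and 3.46, 3.07 and 3.19 with mipafox. The paraoxon arrays lay just below the controls, by -0.14 (SE 0.14, limma adjusted p = 0.751), and the value turned to 0.18 with slide in the fit. The mipafox value was 0.07 (SE 0.14, limma adjusted p = 0.971). Its second probe, placed on chromosome 9, had means of 1.40, 1.06 and 1.18 in control, paraoxon and mipafox. LDHB, the heart subunit, read 7.34 to 8.10, with log2 fold changes of -0.22 and -0.13. Its second probe stayed between 6.48 and 6.89, with means of 6.64, 6.65 and 6.74 in control, paraoxon and mipafox.

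Of the regulators of flux, PFKFB3 and PFKFB4 make the fructose 2,6-bisphosphate that activates phosphofructokinase, and PDK1 and PDK3 switch off pyruvate dehydrogenase and so keep pyruvate out of mitochondria. None of the 4 was past an unadjusted p of 0.05 with either OP. PDK3 read -1.73, -1.63 and -1.64 in controls and -1.56, -1.50 and -1.32 with mipafox. The mipafox arrays were all higher, by 0.21 (SE 0.13, limma adjusted p = 0.826). With paraoxon PDK3 read -1.64, -1.77 and -1.83 (-0.08, SE 0.13, limma adjusted p = 0.859). PFKFB3 had means of -1.18, -1.07 and -1.10 in control, paraoxon and mipafox with its brighter probe, and -5.87, -6.15 and -5.85 with its dimmer one.

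Oxygen sensing was represented by HIF1A and by the prolyl hydroxylases EGLN1 and EGLN3. HIF1A, read by 10 spots per array, was 0.31, 0.59 and 0.51 in controls. It was 0.47, 0.80 and 0.88 with paraoxon and 0.45, 0.57 and 0.74 with mipafox. The arrays overlapped, and the log2 fold changes were 0.24 (SE 0.16, limma adjusted p = 0.577) and 0.12 (SE 0.16, limma adjusted p = 0.955). Its spots within an array had a median standard deviation of 0.05, while arrays of a treatment differed by 0.17. The spread thus came mostly from between arrays.

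EGLN1, the main oxygen sensor of the pathway, read 0.10, 0.38 and 0.33 in controls, 0.19, 0.13 and 0.17 with paraoxon and 0.08, -0.0033 and 0.06 with mipafox. The mipafox arrays were all lower, by -0.22 (SE 0.13, limma adjusted p = 0.821), and paraoxon overlapped the controls (-0.10, SE 0.13, limma adjusted p = 0.807). EGLN3, itself induced by hypoxia, read -5.46 to -4.83, with fold changes of 0.12 and -0.17.

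The 9 hypoxia targets included 3 of the 4 genes past an unadjusted p of 0.05 with paraoxon, 33.3% of the 9 against 13.3% of all tested probes, and none with mipafox. Their directions differed, and that of VEGFA depended on the probe. NDRG1 and VEGFA were higher and CA9 was lower, and the median of the 9 was 0.10 with paraoxon and 0.03 with mipafox. CA9, a carbonic anhydrase of the cell surface, read -4.62, -4.65 and -4.84 in controls, -5.11, -4.95 and -5.15 with paraoxon and -4.91, -4.82 and -5.06 with mipafox. The paraoxon arrays were all below the controls (-0.37, SE 0.14, limma adjusted p = 0.287), and mipafox overlapped them (-0.23, SE 0.14, limma adjusted p = 0.823). Both values kept their sign with slide in the fit (-0.33 and -0.20). The mipafox value turned to 0.0893 with another background correction (normexp).

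NDRG1, a stress-responsive gene linked to differentiation, read -0.17, -0.64 and -0.39 in controls, -0.04, -0.12 and 0.18 with paraoxon and -0.01, -0.06 and -0.17 with mipafox. All 6 exposed arrays were above all controls, but mipafox C and control A were a near tie, 0.002 log2 units apart. The log2 fold change was 0.41 (SE 0.16, limma adjusted p = 0.307) with paraoxon and 0.32 (SE 0.16, limma adjusted p = 0.777) with mipafox, against the same 3 control arrays. They were 0.51 and 0.39 with slide in the fit.

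BNIP3 and BNIP3L, which target mitochondria for removal, differed little with their brighter probes. BNIP3L read 2.14, 2.75 and 2.73 in controls, 2.68, 2.93 and 2.79 with paraoxon and 2.54, 2.50 and 2.76 with mipafox (0.26, SE 0.19, limma adjusted p = 0.625; 0.06, SE 0.19, limma adjusted p = 0.983). BNIP3 gave 0.10 with each OP. P4HA1, a collagen prolyl hydroxylase, read 0.53, 0.76 and 0.92 in controls, 0.85, 0.85 and 1.19 with paraoxon and 0.69, 0.81 and 0.68 with mipafox. Each OP overlapped the controls, and the paraoxon arrays were all above the mipafox arrays. The P4HA1 fold changes against control were 0.23 (SE 0.16, limma adjusted p = 0.597) and -0.01 (SE 0.16, limma adjusted p = 0.998). ADM, the vasodilator peptide adrenomedullin, and ANKRD37 ranged from 0.75 to 1.73 and from -3.12 to -2.13. For both, mipafox A was the highest and mipafox C the lowest of the 9 arrays.

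VEGFA, the growth factor of blood vessels, had the widest difference in fold change between its probes. The probe called brighter here, at chr6:43753511-43753570, was so only on the mean of the 9 arrays: on slide 1 it was the dimmer of the pair, with a control mean of -2.66 against -2.08. It read -2.68, -2.56 and -2.75 in controls, -2.19, -2.02 and -2.06 with paraoxon and -2.87, -2.09 and -1.77 with mipafox. Its log2 fold changes were 0.57 (SE 0.25, limma adjusted p = 0.359) and 0.42 (SE 0.25, limma adjusted p = 0.822). The dimmer probe, whose sequence is given above, read -1.75, -2.09 and -2.39 in controls, -2.55, -2.88 and -2.70 with paraoxon and -2.29, -2.74 and -3.40 with mipafox. Its values were -0.63 (SE 0.28, limma adjusted p = 0.364) and -0.73 (SE 0.28, limma adjusted p = 0.637).

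The difference between the VEGFA probes was set beside the slides, since paraoxon and slide 2 cannot be told apart. The brighter minus the dimmer probe was -0.93, -0.47 and -0.35 on the control arrays and -0.58 on mipafox A, all on slide 1. On slide 2 it was 0.37, 0.86 and 0.64 with paraoxon and 0.65 and 1.64 on mipafox B and C. Neither the slides nor paraoxon and control overlapped, and mipafox A, a single array, lay within the range of the controls. With slide as a term the paraoxon value of the brighter probe was -0.37 and that of the dimmer probe 0.15, both of the opposite sign. The part of the slide in these values was not tested.

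**Figure D4:**
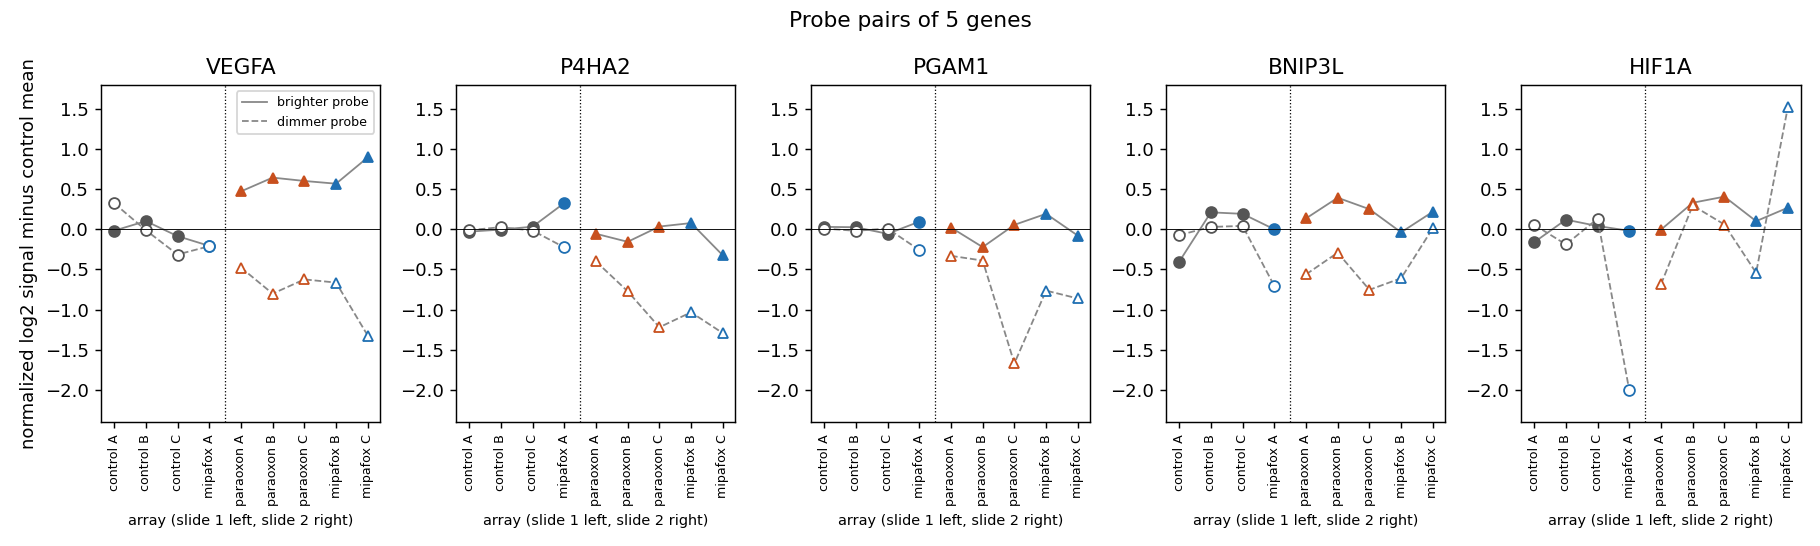
Normalized log2 signal minus the control mean (y axis) of the brighter (filled, solid line) and dimmer (open, dashed line) probe of 5 genes on each array (x axis), with slide 1 left and slide 2 right of the dotted line and treatments coloured as in the other plots. The VEGFA probes part on slide 2, and the dimmer P4HA2 and PGAM1 probes are lower on slide 2 than on slide 1.

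Of the 10 genes with a pair of tested probes, 5 had fold changes of opposite sign with paraoxon (LDHB, PFKFB3, HIF1A, BNIP3L and VEGFA) and 7 with mipafox (PGAM1, LDHA, LDHB, HIF1A, BNIP3L, VEGFA and P4HA2). VEGFA alone differed by over 1 log2 unit, by 1.21 and 1.15. P4HA2, a second collagen prolyl hydroxylase, had the smallest p of all probes of the set with paraoxon, and it came from the dimmer probe. That probe read -3.12, -3.08 and -3.13 in controls, -3.51, -3.88 and -4.33 with paraoxon and -3.34, -4.14 and -4.40 with mipafox. All exposed arrays were lower (-0.80, SE 0.29, limma adjusted p = 0.270; -0.85, SE 0.29, limma adjusted p = 0.570), and mipafox A was the exposed array nearest to the controls. The brighter P4HA2 probe gave -0.06 and 0.03. The dimmer probe gave 0.14 and -0.22 with slide in the fit.

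The dimmer PGAM1 probe read 1.78, 1.75 and 1.78 in controls, 1.44, 1.38 and 0.10 with paraoxon and 1.52, 1.01 and 0.91 with mipafox. All exposed arrays were lower, and paraoxon C stood far below the rest. Its fold changes were -0.80 (SE 0.33, limma adjusted p = 0.341) and -0.63 (SE 0.33, limma adjusted p = 0.799), while the brighter PGAM1 probe gave -0.05 and 0.07. The dimmer BNIP3L probe gave -0.54 (SE 0.21, limma adjusted p = 0.305) and -0.43 (SE 0.21, limma adjusted p = 0.758), against 0.26 and 0.06 with the brighter one. The dimmer HIF1A probe ran from -3.33 on mipafox A to 0.20 on mipafox C. Its controls lay between -1.51 and -1.19 and its standard deviation within treatments was 1.07. Its fold changes of -0.11 and -0.34 were far smaller than that spread.

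Counted over the 45 tested probes, 2 were higher and 6 lower at an unadjusted p of 0.05 with paraoxon, 17.8% in all, against 13.3% of all tested probes. With mipafox 1 was higher and 2 lower, 6.67% against 6.96%. Of the 6 lower with paraoxon, 4 were the dimmer probes of VEGFA, P4HA2, PGAM1 and BNIP3L. The slides did not overlap for 6 of the 45 probes (13.3%), and for 8.57% of the 35 genes by brightest probe. The brighter VEGFA probe was higher on slide 2, and PGK1, ENO1 and the dimmer probes of VEGFA, P4HA2 and PGAM1 were lower. Over all tested probes 4.84% were higher and 4.93% lower on slide 2 without overlap. Every control was on slide 1 and every paraoxon array on slide 2. Probes apart between slides were therefore also apart between paraoxon and control by design, and a small p with paraoxon was likely for them. All of the 6 probes but that of PGK1 were past an unadjusted p of 0.05 with paraoxon. The same share was not counted over all tested probes apart between slides. The part of the slide in the 6 probes was not tested.

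The OPs were given at different doses, so their values stand side by side above. In the direct contrast of paraoxon with mipafox, 0 of 35 genes were called and 0 were past an unadjusted p of 0.05, against 0% and 4.02% of all tested probes. The median of the 35 differences, paraoxon minus mipafox, was -0.07, and they ran from -0.47 to 0.32.

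Other genes of the same pathways were counted in the same fit. Of 38 other glycolysis and pyruvate genes on the array 31 were tested, and 2 were higher and 1 lower at an unadjusted p of 0.05 with each OP (9.68% of the list, against 13.3% of all tested probes with paraoxon and 6.96% with mipafox), with 0 called. PKLR, the pyruvate kinase of liver and red cells, read -6.01 to -5.72 in controls and -5.57 to -5.39 with paraoxon (0.42, SE 0.14, limma adjusted p = 0.243; mipafox 0.37). SLC16A7, a carrier of lactate and pyruvate, had the lowest mipafox value of that list (-0.80, SE 0.22, limma adjusted p = 0.455; paraoxon -0.58). PGAM4 gave 0.37 and 0.21, and ADPGK, a glucokinase that uses ADP, 0.21 and 0.33. The 35 other hypoxia response genes reported here were all tested, with 1 higher and 0 lower with paraoxon (2.86%), 0 with mipafox and 0 called. STC2, a secreted stress-induced glycoprotein, read -0.76, -0.62 and -0.64 in controls and -0.09, -0.20 and -0.05 with paraoxon (0.56, SE 0.16, limma adjusted p = 0.166). RORA gave -0.32 and -0.33, and MXI1, which opposes MYC, 0.33 and 0.31. DDIT4, a stress-induced inhibitor of mTOR signalling, gave 0.36 and -0.03. With paraoxon and slide in the fit, STC2 gave 0.10 and MXI1 -0.0046.

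HIF binds the core ACGTG or GCGTG of hypoxia response elements. In RefSeq promoters of GRCh38.p14, 31 of the 35 genes matched, 30 by symbol and PKM2 through its present name PKM. ACGTG, searched on both strands in the 250 bases before the start site, was in 14 of the 31 (45.2%) and in 18.7% of 27305 promoters. GCGTG was in 11 of the 31 (35.5%) and in 31.9% of all. The set was chosen by name and includes known HIF targets, so a higher share of the core is not a result of these data. The promoters compared were not matched for base content. A site CACGTG, also the E-box read by other factors, holds ACGTG on both strands. The last 60 bases before the start are shown for CA9, EGLN1 and HK2, which did not overlap with control for one OP (CA9 lower with paraoxon, EGLN1 and HK2 lower with mipafox) and hold ACGTG close to the start. They were chosen after their values were seen. They run 5′ to 3′ on the strand of the gene, with ACGTG or its reverse complement in capitals.
CA9, chr9:35673868-35673927, plus strand: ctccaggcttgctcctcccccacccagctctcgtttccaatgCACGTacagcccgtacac
EGLN1, chr1:231422288-231422347, minus strand: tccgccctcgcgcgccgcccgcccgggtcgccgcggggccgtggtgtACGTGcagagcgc
HK2, chr2:74834067-74834126, plus strand: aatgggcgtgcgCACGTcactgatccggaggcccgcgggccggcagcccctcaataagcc
ACGTG also lay in the last 60 bases of ALDOC, whose arrays overlapped the controls with both OPs. It lay further out in ALDOA, GAPDH, ENO2, BNIP3, P4HA1 and ANKRD37, whose arrays also overlapped the controls with both OPs. Of the other genes without overlap, PGK1 and LDHA (lower with paraoxon) and GPI and PDK3 (higher with mipafox) held ACGTG further out. PFKM and HK1 held neither core. ENO1 and HIF1A held GCGTG and no ACGTG, and SLC2A3, BNIP3L, VEGFA and NDRG1 were not matched. A match is a run of letters and says nothing about binding in these cells.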

How the data were processed

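Labelled copies made from the total RNA of NT2 cells were hybridised to 9 one-colour arrays. Per the labels, the authors extracted signals with Agilent Feature Extraction 10.5.1.1. The deposited scanner files hold processed and mean signals as intensity on a linear scale, and the deposited table holds the authors' processed log2 values, whose normalization steps are only partly stated in the study's methods. Coordinates are hg19, per the file headers.

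Here log2 of the processed signal minus the 75th percentile of each array was used. Outlier-flagged and control spots were dropped before averaging by probe. A probe was tested if at least 50% of its spots were well above background on all arrays of any treatment and each treatment kept 2 or more values, which left 29134 probes. They were fitted with limma 3.58.1 in R 4.3.3, with 1 mean per treatment over 9 arrays (6 residual degrees of freedom) and Benjamini-Hochberg adjustment over all tested probes. Precision is limited by the number of arrays. The fit was tested on simulated data.

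The members and gene lists were chosen with earlier results of these data known. Full statistics went to the 8 genes with the smallest unadjusted p in either comparison with control and to HIF1A, EGLN1, LDHA, VEGFA and CA9, for the brightest probe; members whose probes differed in sign or by over 1 log2 unit were named with each probe, and at most 4 genes per list of other pathway genes. A gene of the hypoxia list is not reported here. Alternatives were quantile normalization, normexp (offset 50), the authors' values, filters on dim probes, slide or replicate block, arrays in the fit, variance model, array weights, outlier flags, the mean over the probes of a gene, the threshold and each array left out. Figures were drawn with matplotlib 3.10.9.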

Additional observations from a re-analysis of the deposited data

How the results depend on the processing

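Under all alternatives except array weights, 0 of the 35 genes were called in each comparison. Array weights called 1 with mipafox (PFKL, log2 fold change 1.51). The share of all tested probes called in that way was not counted, and 19.8% passed an adjusted limma p of 0.05 at any fold change. PFKL, the gene of widest spread, was at 0.30 without weights (limma adjusted p = 0.975). It read 3.05 on mipafox B, weighted 3.05, and 1.86 and 0.72 on mipafox A and C, weighted 0.400 and 0.285. Precision was limited by 3 arrays per treatment and by the slides. The letters A, B and C did not pair the arrays (correlations of deviations -0.60 to 0.57), and with the replicate block 4 genes with paraoxon, 1 with mipafox and 0 in the direct contrast were past an unadjusted p of 0.05, as without it. The cause of the changes below was not tested.

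The number of genes past an unadjusted p of 0.05 was 4 with paraoxon, 1 with mipafox and 0 in the direct contrast of the OPs. In that order it was 2, 5 and 2 with the authors' values, 0, 0 and 2 with slide as a block, and 10, 10 and 4 with array weights. Normexp gave 2 with mipafox and 1 in the direct contrast. The direct contrast gave 1 with quantile normalization, with the mean over probes and within slide 2, and 2 with probes well above background on all 9 arrays and with trend and robust variance. With each array left out in turn, the count ran from 0 (without paraoxon C) to 4 with paraoxon, from 0 to 4 (without control A) with mipafox, and from 0 to 2 in the direct contrast.

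For paraoxon, the median over the genes was -0.05 (log2), but 0.0558 with the authors' values and 0.0235 with slide as a block. For mipafox it was 0.06, but -0.0343 with the mean over probes. In the direct contrast it was -0.07, and between -0.14 and -0.0303 with each array left out.

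Of 54 named log2 fold changes, 22 turned sign under at least 1 alternative. With slide as a block the paraoxon values were -0.0503 (HK1), 0.18 (LDHA), -0.37 (VEGFA), 0.15 (VEGFA, dimmer probe), 0.14 (P4HA2, dimmer probe), -0.11 (ADPGK) and -0.00455 (MXI1). The mipafox values were 0.12 (PGK1), -0.0185 (HIF1A) and -0.21 (VEGFA), the same as within slide 1. With the mean over probes the paraoxon values were -0.14 (BNIP3L), -0.0306 (VEGFA), -0.33 (ADPGK) and -0.34 (MXI1), and the mipafox values -0.0757 (LDHA), -0.11 (HIF1A), -0.19 (BNIP3L), -0.16 (VEGFA), -0.0819 (ADPGK) and -0.16 (MXI1). Normexp gave 0.0893 (CA9) and 0.00169 (P4HA1) with mipafox. The authors' values gave PGK1 0.00857 with paraoxon and 0.16 with mipafox, and DDIT4 0.14 with mipafox. Array weights gave GPI -0.0530 with paraoxon, and LDHA -0.0441, BNIP3L -0.18 and P4HA1 0.000151 with mipafox. With each array left out, mipafox values ran from -0.14 to 0.17 (BNIP3L), -0.0374 to 0.16 (LDHA), -0.11 to 0.0834 (P4HA1), -0.11 to 0.0113 (PGK1), -0.16 to 0.0660 (DDIT4) and -1.28 to 0.49 (HIF1A, dimmer probe), and the paraoxon value of the dimmer HIF1A probe from -0.31 to 0.18. In 23 cases a value newly passed an adjusted p of 0.05, all with array weights.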
